A study of Mus musculus with 12 samples.

Results

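Integrins are receptors made of one alpha and one beta chain that span the cell membrane and hold cells to the extracellular matrix, the scaffold of collagens, laminins and fibronectin that accumulates in a scarred liver. The genes described here are 10 chains of the receptors for matrix and for latent TGF-beta: the alpha chains Itga1, Itga5, Itga8, Itga9 and Itgav and the beta chains Itgb1, Itgb3, Itgb5, Itgb6 and Itgb8. They were picked out by name, with earlier results of these data known, and are 10 of the 21936 mouse genes in the table.

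As background, Itgb1 is the common partner of many alpha chains. With Itga1 it forms a collagen receptor, with Itga5 the classical fibronectin receptor, with Itga8 a receptor for nephronectin and other ligands that carry an RGD sequence, and with Itga9 a receptor for tenascin and related proteins. Itgav pairs with Itgb1, Itgb3, Itgb5, Itgb6 or Itgb8. Receptors with Itgav bind vitronectin and fibronectin, and some of them, in particular those with Itgb6 and Itgb8, release active TGF-beta from the latent complex in which it is stored in the matrix. Hepatic stellate cells, which become the myofibroblasts of the fibrotic liver, carry several of these chains, Itga8 and Itgav among them, and Itgb6 is a chain of epithelial cells.

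Liver RNA came from male mice, C57BL/6 in the labels and C57BL/6J in the methods of the study, that had all been given carbon tetrachloride (CCl4, a hepatocyte toxin) by intraperitoneal injection at 1 mL/kg, 2 times per week for 8 weeks, the animals being 6 weeks old when they arrived. LFG, the liver fibrosis group, was killed right after. REG, the regression group, was injected by the tail vein with 200 uL of saline, and the hADMSCs-Exo group with 250 ug of exosomes of human adipose mesenchymal stem cells in 200 uL, 2 times per week for 4 weeks. Each group has 3 libraries, and the 3 samples of a hADMSCs group were not analysed here. Because the mice of REG and hADMSCs-Exo lived 4 weeks longer than those of LFG, the passage of time, age and the end of the toxin cannot be told apart in any comparison with LFG. The labels do not say that libraries of one group are separate animals, so p-values measure the spread between these samples.

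Total counts lay between 13837445 and 19840917 per library. Levels between libraries are given as CPM, counts scaled to the library total and by TMM, which evens out differences in library make-up. Hepatocyte markers such as Alb were high in all libraries but not level between groups: 8 genes summed to 165000 to 171000 CPM in REG, 121000 to 139000 CPM in hADMSCs-Exo and 81200, 132000 and 152000 CPM in LFG replicates 1, 2 and 3. The REG libraries lay above all others, and the part of this in the integrin values was not tested. Replicate 3 of LFG stands apart: 8 defining genes of myofibroblasts, collagens among them, sum to 16.1 CPM in it but to 1170 and 672 CPM in the other 2 LFG libraries, and 6 genes of portal fibroblasts to 5.14 against 45.4 and 47.8 CPM. The collagen genes that define fibrosis are thus at low levels in the library labelled LFG replicate 3. Kupffer cell and macrophage genes are low in it too, at 100 CPM against 784 and 622 CPM. Genes of platelets and megakaryocytes (7.18 against 9.8 and 3.44 CPM) and of mesothelium (8.25 against 5.09 and 11.7 CPM) are not lowest in it. Every comparison with LFG is given with and without this library.

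The starts of the 2 alpha chain genes that stood out between the treated and saline mice are shown because these genes had opposite signs there. Below are the 250 bases before the RefSeq start of each gene on GRCm38.p6, read on the gene's own strand, which is minus for both. Capitals mark GC boxes (GGGCGG or its reverse complement), the letters that Sp1 and related factors are known to bind.
Itga8, chr2:12301945-12302194: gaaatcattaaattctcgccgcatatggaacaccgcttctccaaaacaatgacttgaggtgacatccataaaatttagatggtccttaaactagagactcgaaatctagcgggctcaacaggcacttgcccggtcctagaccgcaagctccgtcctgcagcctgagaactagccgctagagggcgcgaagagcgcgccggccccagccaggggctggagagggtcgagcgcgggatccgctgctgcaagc
Itga5, chr15:103366792-103367041: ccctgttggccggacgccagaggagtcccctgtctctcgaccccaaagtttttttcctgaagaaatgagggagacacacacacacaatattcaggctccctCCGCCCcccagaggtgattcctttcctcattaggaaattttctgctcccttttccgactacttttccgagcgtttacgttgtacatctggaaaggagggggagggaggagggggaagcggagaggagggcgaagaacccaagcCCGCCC
The Itga5 window holds 2 GC boxes, at positions -149 to -144 and -6 to -1 from the start, and the Itga8 window holds none. A GC box is in 32.7% of the 32851 windows of the table. AP-1 letters (TGANTCA, in 6.75% of windows), TEAD letters (GGAATG, in 12.6%) and the CArG box of serum response factor (in 1.47%), each searched on both strands, are in neither window. Windows were found for 9 of the 10 genes, Itgb3 being the other. Among these, TEAD letters occur once, before Itgb1, and a CArG box once, before the downstream of the 2 starts listed for Itgb6. A match describes the letters only.

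The 10 genes differed widely in level. On the FPKM scale (counts divided by gene length and library total, so that genes can be compared), Itgb1 came first in every group, at 40.9 ± 4.22 in REG and 41.5 ± 4.45 in hADMSCs-Exo (SD, n = 3 each). Itgb5 was next at 26.6 ± 1.51 and 24.3 ± 1.94 FPKM, followed by Itga5 at 3.94 ± 0.286 and 5.96 ± 1.23 FPKM. In REG and in hADMSCs-Exo the FPKM ranges of these 3 genes lay apart from each other and from the next gene, Itga9. In LFG the order of the first 5 genes was the same, but the ranges of neighbours overlapped, except for Itgb5 and Itga5.

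Below them, Itga9, Itgav, Itga1, Itga8 and Itgb3 lay between 0.292 and 3.32 FPKM as group means. Neighbours in this stretch mostly overlapped. Itga8 took the sixth place in LFG, the seventh in REG and the eighth in hADMSCs-Exo, and was the 1 gene with a different place in each group. Itgb8 and Itgb6 closed the order, with group means of at most 0.125 FPKM, so the chains best known for freeing TGF-beta were near the limit of detection in whole liver RNA. Itgb5 made up 97.6% ± 0.802, 98.0% ± 0.693 and 97.0% ± 1.92 of the summed FPKM of the 4 beta chains other than Itgb1 in LFG, REG and hADMSCs-Exo (SD, n = 3 each).

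**Figure D1:**
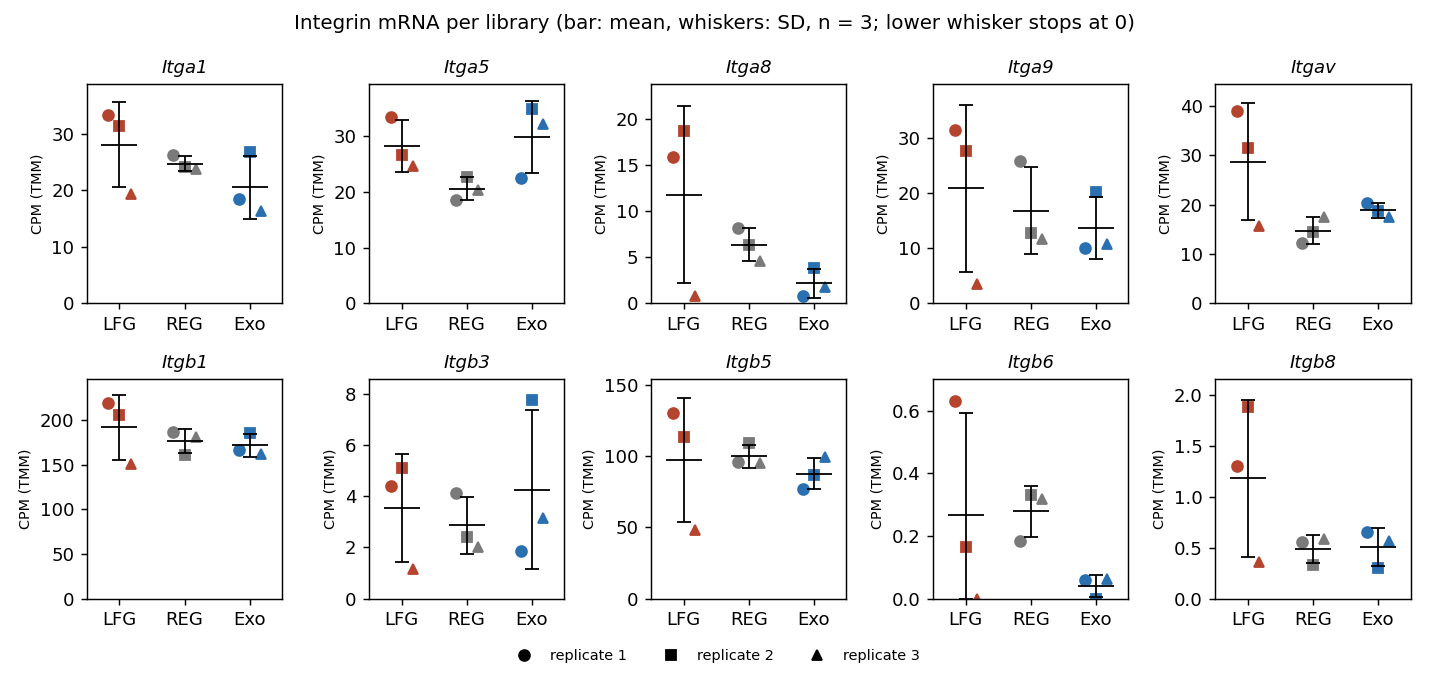
Level of each integrin gene in CPM scaled by TMM (y axis, a separate scale for each gene) in the 3 groups (x axis, Exo being hADMSCs-Exo). Points are libraries with a shape for each replicate number, and bars give the mean ± SD (n = 3). The triangle of LFG lies lowest of its group for all 10 genes, and the 3 hADMSCs-Exo libraries lie below the 3 REG libraries for Itga8 and Itgb6.

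The comparison of hADMSCs-Exo with REG asks what the exosomes added to the regression that followed the end of the toxin. In it, Itga8 mRNA was about 2.93 times lower after exosomes and Itga5 mRNA 1.45 times higher, while the main partner chain Itgb1 differed by 1.03 times. None of the integrin genes passed both thresholds of this test, an adjusted p below 0.05 and a log2 fold change of 1 or more in size. Itgb6 and Itgb8 had too few counts for it, so 8 of the 10 genes were tested, of which 0 were past the thresholds beside 1 of all 12337 genes (0.00811%). At an unadjusted p under 0.05 stood 2 of the 8, beside 10.0% of all genes: Itga8, lower (4.69% of all genes were), and Itga5, higher (5.34%). Without REG replicate 1 or without hADMSCs-Exo replicate 3, Itga8 alone was at such a p, lower, as 3.93% and 4.45% of all genes were. With all 9 libraries in one fit it was Itga5 alone, higher (2.51%). With library totals Itgav was a further gene at such a p, higher (7.06%). Without REG replicate 3 Itgav stood there in place of Itga5, higher (6.21%). Without hADMSCs-Exo replicate 2 Itga1 did, lower (4.57%). DESeq2 and limma with voom also called 0 of the 8 past the thresholds. The median log2 fold change of the 8 genes was -0.115, with 5 below 0, beside a median of 0.00797 over all genes, of which 48.9% were below 0. Without REG replicate 1 the median of the 8 turned to 0.0945, beside 0.017 over all genes.

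Itga8 was measured in REG at 8.19, 6.34 and 4.63 CPM and in hADMSCs-Exo at 0.832, 3.86 and 1.83 CPM, from 87 to 133 and from 14 to 64 counts. All 3 treated libraries lay below all 3 saline libraries, as they did for 7.37% of all genes. The log2 fold change was -1.55 ± 0.50 (SE), with an adjusted p of 0.411 by the quasi-likelihood test of edgeR (Benjamini-Hochberg). Over 14 alternatives the value ran from -2.26 to -1.16 and the adjusted p from 0.101 to 1.0, the lowest value being without hADMSCs-Exo replicate 2. Fewer cells that carry a gene and less RNA per cell cannot be told apart in RNA of whole liver, here and for every gene that follows. The counts cannot be told apart either from those of overlapping transcripts on the other strand, since the use of strand is not given in the sources used here, and for Itga8 the annotation has the antisense gene E030013I19Rik. Itga1 has the antisense gene Gm10734, Itga9 has Gm2415 and the pseudogene Gm10157, and Itgav has Gm13684 and the pseudogene Dnmt3l-ps1 on the other strand. Itga1 also overlaps Pelo and Gm49395, protein-coding genes on the same strand, so its counts are uncertain for that reason too. On the same strand, Itga8 overlaps Gm37701 and Itga5 the microRNA gene Mir6963.

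Itga5, the alpha chain of the fibronectin receptor, was at 18.6, 22.8 and 20.4 CPM in REG and at 22.6, 34.9 and 32.1 CPM in hADMSCs-Exo. By this scale the lowest treated library fell just below the highest saline library. By FPKM the groups lay apart, at 3.67 to 4.24 in REG and 4.68 to 7.13 in hADMSCs-Exo. The log2 fold change was 0.54 ± 0.19 (SE), with an adjusted p of 0.432 in the same edgeR fit, and it ran from 0.407 to 0.702 over the 14 alternatives.

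Itgav, the partner of the TGF-beta activating chains, had a log2 fold change of 0.35 ± 0.17, at 12.2 to 17.5 CPM in REG and 17.5 to 20.4 CPM in hADMSCs-Exo (adjusted p = 0.531 by edgeR). The lowest treated and the highest saline library were nearly level. Itgb3, which joins Itgav in a vitronectin receptor, spread widely between libraries: 1.84, 7.78 and 3.16 CPM in hADMSCs-Exo against 4.13, 2.43 and 2.02 CPM in REG. Its log2 fold change of 0.57 ± 0.54 turned to -0.197 without hADMSCs-Exo replicate 2, the highest library. The collagen receptor chain Itga1 (-0.27 ± 0.20) and the tenascin receptor chain Itga9 (-0.30 ± 0.38) had overlapping groups, and the value of Itga9 turned to 0.174 without REG replicate 1.

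The 2 most abundant chains were nearly level. Itgb1 was at 186.0, 160.7 and 181.1 CPM in REG and 166.1, 185.8 and 162.1 CPM in hADMSCs-Exo, a log2 fold change of -0.04 ± 0.13, whose sign changed with library totals only, by voom and without REG replicate 1. Itgb5 was at 94.99 to 109.3 CPM in REG and 77.2 to 99.4 CPM in hADMSCs-Exo, a log2 fold change of -0.19 ± 0.14.

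Itgb6, the epithelial partner of Itgav, had 3, 6 and 6 counts in the REG libraries and 1, 0 and 1 in hADMSCs-Exo. The groups did not overlap. Of the genes tested, Itgb6 not among them, 7.37% were lower in this way. The ratio of the summed CPM was 0.144, with a 95% interval of 0.016 to 0.619 that covers counting error only and not the spread between libraries. A count of 0, as in hADMSCs-Exo replicate 2, allows up to 3 counts, which is the count of REG replicate 1. Itgb8 had 9, 6 and 11 counts in REG and 11, 5 and 9 in hADMSCs-Exo, a ratio of 1.04 (0.575 to 1.87).

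**Figure D2:**
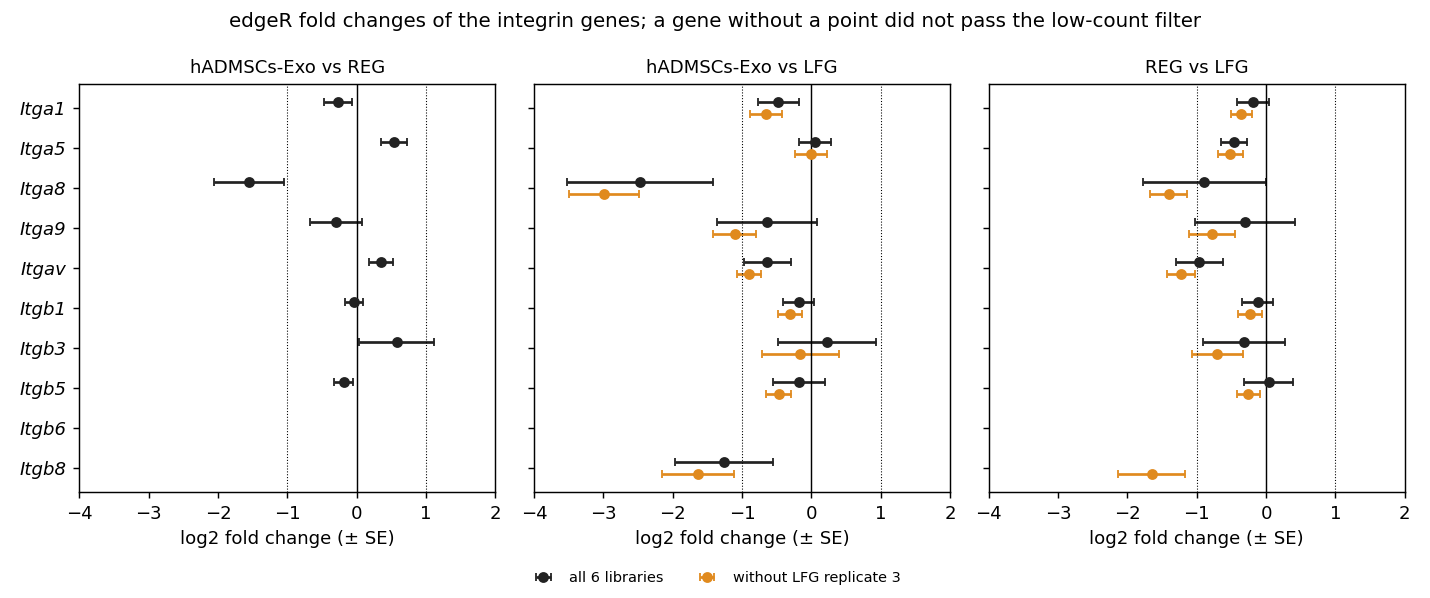
Log2 fold change of each integrin gene by edgeR (x axis) in the 3 comparisons (panels), with bars of ± 1 SE. Black points use all 6 libraries and orange points leave out LFG replicate 3, dotted lines mark 1 and -1, and genes without a point did not pass the filter on low counts. Itga8 lies lowest in both panels of hADMSCs-Exo, and without LFG replicate 3 the 8 genes tested in all 3 comparisons lie below 0 against LFG. Itgb8 passed the filter through its LFG counts only.

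The alpha chains were also set against each other per length. Of the summed FPKM of the 5 alpha chains, Itga5 took 35.0%, 47.2% and 44.9% in the REG libraries and 51.5%, 52.7% and 61.0% in hADMSCs-Exo. Itga8 took 10.3%, 8.79% and 6.83% in REG and 1.27%, 3.9% and 2.33% in hADMSCs-Exo. Itga1 took 13.4% ± 0.473 and 10.1% ± 1.62 (SD, n = 3 each). The groups did not overlap for these 3 of the 5 shares, each with p = 0.1 in an exact permutation test, two-sided, the smallest p that 3 libraries against 3 allow, so none can pass a threshold of 0.05. By level, the groups did not overlap for 15.5% of all genes. The shares are parts of one sum and so are not independent of each other. The sum itself was 9.4 ± 0.961 FPKM in REG and 10.8 ± 2.34 FPKM in hADMSCs-Exo, with overlapping groups.

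The ratio of Itga5 to Itga8 in FPKM is a description only, since the 2 genes were picked for their opposite signs in this comparison. It was 3.39, 5.36 and 6.58 in REG and 40.5, 13.5 and 26.2 in hADMSCs-Exo. In LFG the ratio was 3.14 and 2.13 in replicates 1 and 2, and 46.1 in replicate 3. Itga8 made up 11.7% and 15.7% of the alpha chains in the first 2 of these libraries and 1.34% in replicate 3. The shares of Itga9 and Itgav overlapped between REG and hADMSCs-Exo.

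**Figure D3:**
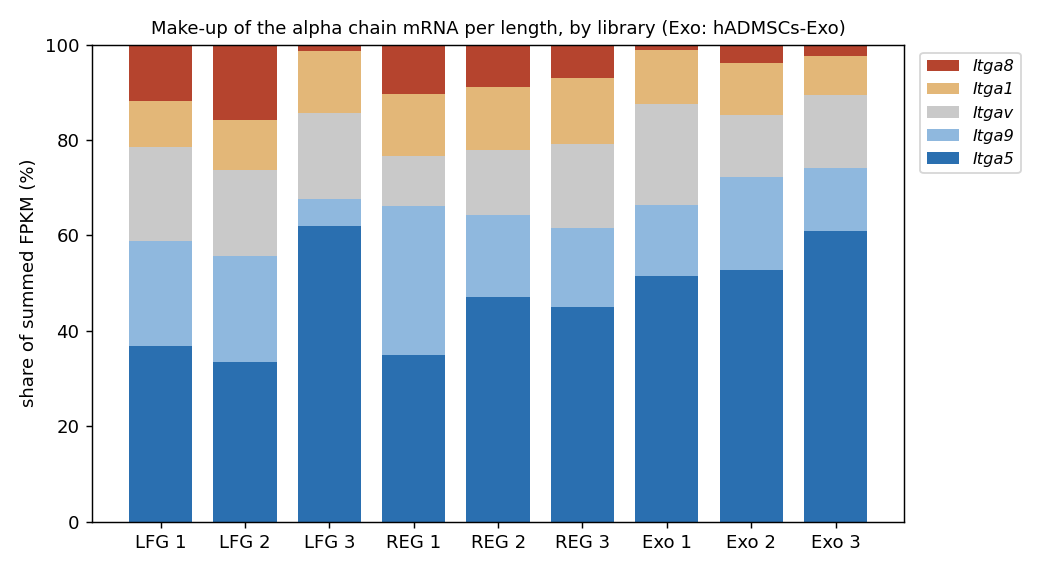
Share of each alpha chain in the summed FPKM of the 5 alpha chains (y axis, percent) in each of the 9 libraries (x axis, Exo being hADMSCs-Exo). Itga5 takes 35.0% to 47.2% in REG and 51.5% to 61.0% in hADMSCs-Exo, and Itga8 is 6.83% to 10.3% and 1.27% to 3.9%. In LFG replicate 3 Itga5 is at 61.9% and Itga8 at 1.34%.

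The comparison of REG with LFG asks what happened to the chains when the toxin was stopped. With all 6 libraries, 0 of the 8 tested integrin genes were past the thresholds, as was 0% of all 12517 genes, and 2 of the 8 were at an unadjusted p under 0.05, both lower in REG, beside 6.70% of all genes. One of these was Itgav, at 38.9, 31.5 and 15.7 CPM in LFG and 12.2, 14.6 and 17.5 CPM in REG, a log2 fold change of -0.96 ± 0.34 with an adjusted p of 0.392. The other was Itga5, at 33.5, 26.7 and 24.7 CPM in LFG, above all 3 REG libraries (as for 9.63% of all genes), a log2 fold change of -0.46 ± 0.19 with an adjusted p of 0.432 (edgeR for both). By FPKM the Itga5 groups overlapped, LFG replicate 3 at 4.07 lying below REG replicate 2 at 4.24. The count of 2 was 0 without LFG replicate 1 or 2, without REG replicate 1 or 2 and with the replicate number as a block. There 5.62%, 4.19%, 3.20%, 2.48% and 4.72% of all genes were lower at such a p. It was 1 without REG replicate 3 (4.78%), with RLE size factors (6.48%), with library totals (9.14%) and with no filter on low counts (5.18%). It was 6 by limma with voom, where 22.0% of all genes were lower at such a p, and 5 without LFG replicate 3, where 19.1% were. Past the thresholds DESeq2 called 0 of the 8 and limma with voom and quality weights 1, Itgav, beside 6.74% of all genes that were lower by voom.

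Without LFG replicate 3, Itgb8 passed the filter as well, but through its LFG counts only, so it is left out of the counts that follow. All 8 others had a log2 fold change below 0, as had 50.2% of all genes. With all libraries the groups did not overlap for 1 of the 8, beside 9.63% of all genes that were lower in this way. LFG replicate 3 was the lowest of its group for all 8, so leaving it out by itself favours groups that do not overlap. Without it that held for all 8, beside 29.2% of all genes. That share is no like measure, since this library need not be the lowest for every gene. Of the 8, 2 fell past the thresholds, beside 6.94% of all genes. Itgav fell by 1.22 ± 0.20 on the log2 scale (adjusted p = 0.0159 by edgeR) and Itga8 fell by 1.41 ± 0.26 (adjusted p = 0.019 by edgeR). With all libraries the value of Itga8 was -0.89 ± 0.89 (adjusted p = 0.72 by edgeR), and -0.275 with the replicate block. Itga8 was at 15.9 and 18.7 CPM in LFG replicates 1 and 2 and at 0.798 CPM in replicate 3. Itgb8 had 31, 34 and 4 counts in LFG and 9, 6 and 11 in REG. The median of the 8 was -0.608, beside -0.00511 over all genes, and it was -0.313 with all libraries. Without LFG replicate 1 it was -0.0907 and without LFG replicate 2 it was -0.086, beside -0.0586 and -0.0858 over all genes.

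The most abundant chains differed least here too. Itgb1 had a log2 fold change of -0.24 ± 0.17 and Itgb5 of -0.25 ± 0.17 without LFG replicate 3, with adjusted p-values of 0.348 and 0.304 by edgeR. With all libraries the value of Itgb5 was 0.04 ± 0.36. The ratio of Itgb5 to Itgav in FPKM was 9.31 to 10.9 in LFG and 16.4 to 23.8 in REG. This pair was chosen after the values were seen, so the ratio is a description only. It was 11.5 to 17.2 in hADMSCs-Exo, which overlapped with REG and lay above LFG.

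Between hADMSCs-Exo and LFG, 0 of the same 8 integrin genes were past the thresholds and 0 at an unadjusted p under 0.05, beside 0% and 5.98% of all 12489 genes. Past the thresholds DESeq2 and limma with voom called 0 as well. At an unadjusted p under 0.05 stood Itga8 alone by DESeq2, with library totals, with no filter on low counts and with all 9 libraries in one fit, where 5.07%, 3.96%, 3.80% and 5.85% of all genes were lower at such a p. The count was 4 of the 8 by limma with voom and 5 of the 8 without LFG replicate 3, all lower, beside 15.7% of all genes in either setting. Itga8 had the lowest value, a log2 fold change of -2.47 ± 1.05 with an adjusted p of 0.805 by edgeR. Without LFG replicate 3, Itga8 fell by 2.99 ± 0.50 (adjusted p = 0.0259 by edgeR) and was 1 of the 8 past both thresholds, beside 4.50% of all genes that were lower. With the replicate number as a block as well, its value was -3.12 and its adjusted p 0.0421. Itgav had a log2 fold change of -0.64 ± 0.34 with all libraries (adjusted p = 0.813 by edgeR) and of -0.90 ± 0.17 without LFG replicate 3 (adjusted p = 0.0318), short of the fold threshold. With the block as well it was -0.85, and its adjusted p of 0.067 was above 0.05. With all libraries, 0 of the 8 genes had all treated libraries below all LFG libraries, beside 5.52% of all genes. LFG replicate 3 was the lowest of its group for each of the 8, so leaving it out favours such a gap. Without LFG replicate 3 and with no block, 6 of the 8 genes had all treated libraries below both LFG libraries, beside 24.9% of all genes.

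Itga5 and Itgb3 were the other 2, with overlapping groups. Itga5 was at 33.5 and 26.7 CPM in LFG replicates 1 and 2 and at 22.6 to 34.9 CPM in hADMSCs-Exo, with a log2 fold change of -0.01 ± 0.23 without LFG replicate 3 and 0.06 ± 0.23 with it. REG and hADMSCs-Exo are both set against the same LFG libraries here, so these comparisons are not independent of each other. Itgb8 was at 0.301 to 0.654 CPM in hADMSCs-Exo, against 1.3 and 1.89 CPM in LFG replicates 1 and 2 and 0.355 CPM in replicate 3.

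The levels of the integrin genes were set beside those of genes that mark liver cell types, each list summed in CPM. Genes of stellate cells (10 genes, Lrat, Des and Pdgfrb among them) summed to 160, 134 and 95.3 CPM in REG and to 43.4, 114 and 68.6 CPM in hADMSCs-Exo. All 9 that were tested had a log2 fold change below 0, with a median of -0.762, beside 48.9% of all genes below 0. At an unadjusted p under 0.05 stood 3 of them, beside 4.69% of all genes that were lower, and 0 passed the thresholds. Smooth muscle genes (6, Myh11 and Cnn1 among them) summed to 14.0 to 25.6 CPM in REG and 5.05 to 7.41 CPM in hADMSCs-Exo. Myofibroblast genes summed to 94.3 to 179 CPM and 27.0 to 70.5 CPM, with Tagln at 0 in all 3 REG libraries. Itga8 moved with these lists, and their part in its values was not tested.

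In the libraries with the most and the least Itga8 the stellate cell genes were also near their highest and lowest sums. LFG replicate 2 had 18.7 CPM of Itga8 and 166 CPM of stellate cell genes, and LFG replicate 3 and hADMSCs-Exo replicate 1 had 0.798 and 0.832 CPM beside 40.3 and 43.4 CPM. The relation was not one of proportion: at 160 CPM of stellate cell genes, Itga8 was at 15.9 CPM in LFG replicate 1 and at 8.19 CPM in REG replicate 1. Itga5 showed no such order, with 34.9 CPM at a sum of 114 and 18.6 CPM at a sum of 160.

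**Figure D4:**
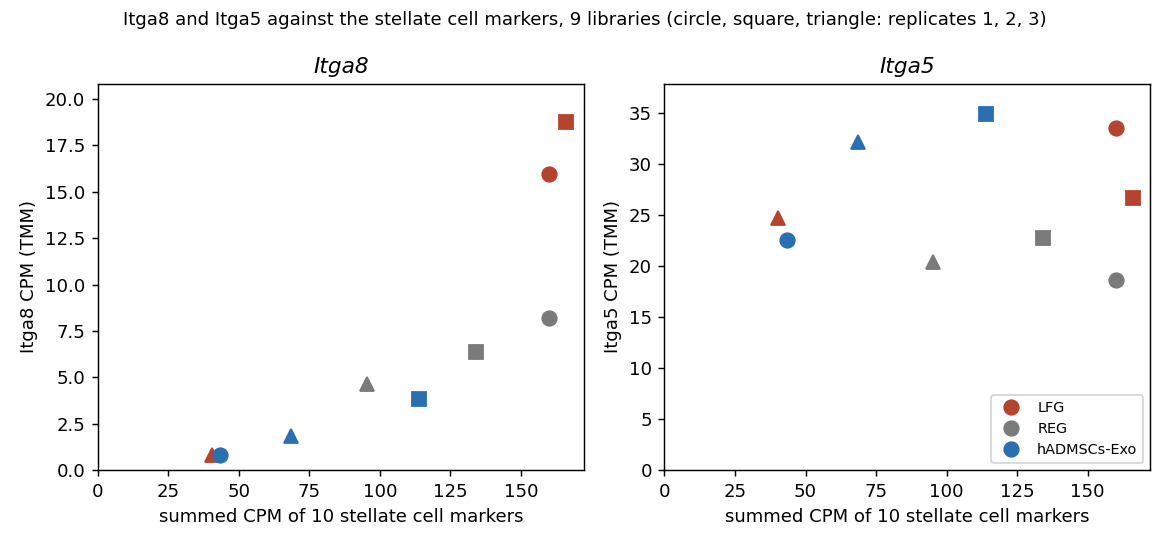
Level of Itga8 (left) and Itga5 (right) in CPM scaled by TMM (y axes) against the summed CPM of 10 stellate cell marker genes (x axes) in the 9 libraries, colored by group and shaped by replicate number. Itga8 runs from 0.798 CPM at a sum of 40.3 to 18.7 CPM at a sum of 166, and the Itga5 values of hADMSCs-Exo, 22.6 to 34.9 CPM, occur at sums of 43.4 to 114.

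The sums of other cell types were set beside these too. Within each group, sinusoidal endothelial and portal fibroblast genes ranked the replicates in the same order as the stellate cell genes and Itga8 did. Kupffer cell and macrophage genes overlapped between REG (232 to 806 CPM) and hADMSCs-Exo (462 to 584 CPM). Sinusoidal endothelial genes were highest in REG replicate 1 (376 CPM) and hADMSCs-Exo replicate 2 (304 CPM), the libraries of these groups in which Itga9 was highest (25.9 and 20.3 CPM). In LFG the endothelial genes were highest in replicate 2 (233 against 194 CPM in replicate 1) and Itga9 in replicate 1 (31.5 against 27.6 CPM). Platelet and megakaryocyte genes, of interest because platelets carry Itgb3, summed to 3.92 CPM in hADMSCs-Exo replicate 2, the library with the most Itgb3, and to 4.82 and 8.85 CPM in the other 2, with Gp1bb at 0 in all 9 libraries. Cholangiocyte genes, of interest for Itgb6 and Itgb8, were at 65.7 CPM in LFG replicate 3 and at 206 and 158 CPM in the other LFG libraries, 83.4 to 91.8 CPM in REG and 68.8 to 142 CPM in hADMSCs-Exo. The part of these cell types in the integrin values was not tested.

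The genes whose log2 CPM ran most closely with each integrin chain were sought among 12760 genes over the 9 libraries. These 9 points share groups, depth and LFG replicate 3, so r is a description, given also over the 8 libraries without that one. Itga8 ran with Lamb1, a laminin chain, and Cpxm1, both at r = 0.993 (0.991 over 8). Itga1 ran with Adgra2, an adhesion receptor of vessels, at 0.98 (0.983) and Pxdn, a matrix peroxidase that crosslinks collagen IV, at 0.967 (0.974). Itga9 ran with Prickle2 and Ets1, both at 0.986 (0.965 and 0.964), and Itgb3 with Gja4, a connexin of arterial endothelium, at 0.977 (0.964), and Rab27a at 0.971 (0.969).

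Itgav ran with Mitf at 0.973 (0.972) and Zmat3 at 0.97 (0.969), Itgb5 with Itm2c at 0.977 (0.918) and Igsf10 at 0.973 (0.97), and Itgb1 with Ncapg at 0.971 (0.96) and Plekhb2 at 0.97 (0.967). Itgb8 ran with Ccdc149 at 0.973 (0.97) and Krt7, a keratin of bile duct cells, at 0.943 (0.948). The closest genes to Itga5 were less close, Eloa at 0.93 (0.938) and Cenpt at 0.91 (0.919). Among the integrin genes themselves, Itga1 and Itga8 had an r of 0.894 and Itga9 and Itgb1 of 0.888, while Itga5 and Itga8 had an r of 0.0889. Itgb6 was too low to be included.

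The ligands of these receptors were measured in the same fits. Of 28 genes for collagens, laminins and other integrin ligands, 26 were tested in hADMSCs-Exo against REG and 22 had a log2 fold change below 0, with a median of -0.969 beside 0.00797 over all genes, of which 48.9% were below 0. At an unadjusted p under 0.05 stood 12 of the 26, all lower, beside 4.69% of all genes, and 0 passed the thresholds. Col3a1, a fibrillar collagen, had a log2 fold change of -1.73 ± 0.36, Lamb1 of -1.47 ± 0.39 and Col1a1, the main chain of collagen I, of -1.19 ± 0.31, with adjusted p-values of 0.358, 0.394 and 0.394 by edgeR. The collagens are also among the myofibroblast genes above, by which LFG replicate 3 was set apart. A fit without that library thus cannot test whether the collagens were lower in REG than in LFG. In REG against LFG without replicate 3, 16 of the 26 fell past the thresholds, beside 6.94% of all genes, with a median of -1.5, and with all libraries 0 did by edgeR, 1 being lower at an unadjusted p under 0.05 (6.70% of all genes were), with a median of -1.02.

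Inside the cell, 26 genes encode the talins, kindlins and other proteins that activate integrins or tie them to actin. Of the 25 tested in hADMSCs-Exo against REG, 0 were at an unadjusted p under 0.05, beside 10.0% of all genes, and their median log2 fold change was -0.0108. Zyx, a focal adhesion protein, had the smallest p, with a log2 fold change of 0.25 ± 0.11 (adjusted p = 0.502 by edgeR). Ilk, a core adaptor, is listed at 0 in all hADMSCs-Exo libraries and nearly so in the others, and was not tested. In REG against LFG without replicate 3, 3 of the 25 fell past the thresholds, where 6.94% of all genes did. Flna, which crosslinks actin, fell by 1.56 ± 0.22 on the log2 scale, Src, a kinase of adhesion sites, fell by 1.89 ± 0.42, and Tns1, a tensin, was the other. With all libraries 0 did by edgeR, with 1 lower at an unadjusted p under 0.05, where 6.70% of all genes were.

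Of 8 genes for TGF-beta and the proteins that store it, which Itgav receptors act on, 6 had a log2 fold change below 0 in hADMSCs-Exo against REG, beside 48.9% of all genes, with a median of -0.499 (0.00797 over all genes) and 0 at an unadjusted p under 0.05, beside 10.0% of all genes. Tgfb3 had the smallest p, at -0.82 ± 0.40 (adjusted p = 0.536 by edgeR). In REG against LFG without replicate 3, all 8 had values below 0, as had 50.2% of all genes, and 3 fell past the thresholds, beside 6.94% of all genes: Ltbp1 fell by 1.55 ± 0.31, Ltbp3 fell by 1.60 ± 0.35 and Tgfb3 fell by 1.60 ± 0.36 on the log2 scale. With all libraries 0 did by edgeR, and 0 were at an unadjusted p under 0.05.

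Other integrin chains served as a comparison. Of 7 further chains of matrix receptors, 6 were tested in hADMSCs-Exo against REG, with a median of -0.296 (0.00797 over all genes) and 0 at an unadjusted p under 0.05, beside 10.0% of all genes. Itga6, a laminin receptor chain, had the smallest p (log2 fold change -0.70 ± 0.32). In REG against LFG without replicate 3, Itga6 fell by 1.44 ± 0.28 and Itga10, a collagen receptor chain, fell by 1.63 ± 0.44 on the log2 scale, 2 of the 6 beside 6.94% of all genes, and Itga7, a laminin receptor chain of muscle, was higher by 0.81 ± 0.19, short of the fold threshold. Itga11, a collagen receptor chain that passed the filter through its LFG counts only, is left out of this count. With all libraries 0 were past the thresholds by edgeR, with 1 lower and 1 higher of the 6 tested at an unadjusted p under 0.05, beside 6.70% and 4.62% of all genes. Of 9 chains of leukocytes and platelets, 8 were tested in hADMSCs-Exo against REG, of which 2 were below 0, beside 48.9% of all genes, with a median of 0.318 (0.00797 over all genes). Itgam, a chain of myeloid cells, had a log2 fold change of 1.40 ± 0.48 (adjusted p = 0.43 by edgeR), with all treated libraries above the saline libraries, as for 8.14% of all genes, and was the 1 gene of the 8 at an unadjusted p under 0.05 and higher, beside 5.34% of all genes. Without LFG replicate 3, 3 of the 8 fell past the thresholds in REG against LFG, beside 6.94% of all genes: Itgam fell by 2.05 ± 0.42, Itgax fell by 1.72 ± 0.45 and Itgb2, the beta chain of leukocytes, fell by 1.22 ± 0.34 on the log2 scale. With all libraries 0 did by edgeR, with Itgam lower at an unadjusted p under 0.05, where 6.70% of all genes were. Summed over the list, these chains were at 41.4 to 95.2 CPM in REG and 67.9 to 99.8 CPM in hADMSCs-Exo.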

How the data were processed

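RNA of mouse liver was sequenced by the submitters from libraries made with an NEBNext Ultra kit. The submitters' processing notes name cutadapt 1.15, HISAT2 2.0.5, HTSeq 0.9.1, DESeq 1.30.0 and GRCm38. The authors deposited raw counts per gene for 9 libraries and beside them FPKM, which equals the counts divided by gene length and library total (largest relative difference 9.19e-07). The use of strand is not given in the sources used here. Of 12 samples, the 3 of hADMSCs were not analysed here. The columns headed MSC_E were read as the samples titled Exo.

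The test was that of edgeR 4.0.16 (R 4.3.3) by quasi-likelihood on counts, two-sided, with TMM, filterByExpr, the 6 libraries of each comparison and Benjamini-Hochberg adjustment over all genes tested. Past the thresholds means an adjusted p below 0.05 with a log2 fold change of 1 or more in size. SE is the fold change divided by the root of F. CPM was scaled by TMM over the 9 libraries, and log2 CPM has a prior count of 2. Alternatives used RLE size factors, library totals, DESeq2 1.42.0, limma 3.58.1 with voom and quality weights, other filters, all libraries in one fit, a replicate block and each library left out. The edgeR fit was also run on simulated counts, drawn with the spread that edgeR itself had estimated. No library in them was set apart like LFG replicate 3, so they do not test that case. Other tools were Python 3.11.15, scipy 1.17.1, pandas 2.3.3 and matplotlib 3.10.9.

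The integrin genes, the gene lists and the alternatives were chosen with earlier results of these data known. The genes named are the 10 integrin genes, from each other list at most the 3 with the smallest p in a comparison, and the 2 genes most like each integrin gene. Also named are Ilk, Tagln, Gp1bb and Itga11, for counts of 0 or the low-count filter, genes that overlap an integrin gene, and Alb as an example. The remaining marker lists, of portal fibroblasts, mesothelium and lymphocytes, summed to 15.8 to 21.2, 2.09 to 3.36 and 12.4 to 23.3 CPM in REG and to 9.1 to 17.4, 3.45 to 5.63 and 23.8 to 25.3 CPM in hADMSCs-Exo. Positions are those of GRCm38. Replicates differed beyond sampling noise (lowest chi-square per gene 27.0), and none was a repeat. The fits had no block, and fits with the replicate number as a block were alternatives in all 3 comparisons. As a check of pairing, the deviations of same-numbered libraries from their group means were correlated, without a test. Between hADMSCs-Exo and LFG the values were 0.101, 0.308 and 0.18. With REG, correlations were 0.159, 0.00935 and 0.0337 (hADMSCs-Exo) and 0.415, -0.202 and 0.305 (LFG). These values do not establish that the numbers pair libraries of any 2 groups, and the labels do not say so.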

Additional observations from a re-analysis of the deposited data

How the results depend on the processing

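In hADMSCs-Exo against REG, 0 integrin genes passed the thresholds under all alternatives, the replicate block included, and the genes of the whole table that passed, 1 by edgeR, were 67 by DESeq2, 3 by limma with voom, 4 with no filter on low counts, 0 with all 9 libraries in one fit, 1 with the replicate block and 0 to 1 with a library left out. In hADMSCs-Exo against LFG the whole table had 60 by DESeq2, 1 by limma with voom, 1 with all 9 libraries and 0 to 773 with a library left out, and integrin genes numbered 0 to 1. The block with LFG replicate 3 left out, an alternative added after the data were seen, gave 395 genes and 1 integrin gene, and the replicate block alone 0 integrin genes. With LFG replicate 3 left out, the block moved the adjusted p of Itgav from 0.0318 to 0.067. In REG against LFG the whole table had 239 by DESeq2, 1285 by limma with voom and 0 to 1391 with a library left out, and integrin genes 1 by limma with voom and 0 to 2. The replicate block gave 0 past the thresholds there too, and the integrin genes at an unadjusted p under 0.05 went from 2 to 0 with it. Leaving out LFG replicate 3 gave the upper ends for LFG. With library totals only, the median of all genes moved to -0.179 in hADMSCs-Exo against LFG and to -0.272 in REG against LFG. The causes were not tested.

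Signs of small values turned, none of them past the thresholds. In hADMSCs-Exo against REG, Itgb1 was 0.0221 with library totals, 0.00564 by voom and -0.114 to 0.0153 with a library left out, Itga9 ranged over -0.693 to 0.174 and Itgb3 over -0.197 to 0.95. In hADMSCs-Exo against LFG, Itga5 was -0.117 with library totals, -0.0976 with the block without LFG replicate 3 and -0.0633 to 0.248 with a library left out, Itgb3 was -0.393 by voom, -0.276 with that block and -0.532 to 0.61 with a library left out, and Itgb5 was -0.579 with that block and -0.473 to 0.0967 with a library left out. In REG against LFG, Itgb5 was -0.28 with library totals, -0.129 by voom and -0.254 to 0.304 with a library left out, Itga9 was 0.04 with the replicate block and -0.781 to 0.112 with a library left out, and Itgb3 was -0.859 by voom and -0.703 to 0.0238 with a library left out. Depth limits Itgb6, which had 0 to 6 counts per library in REG and hADMSCs-Exo.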
